A study of Miniopterus schreibersii with 14 samples.

Results

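In embryonic limbs of the bent-wing bat Miniopterus schreibersii, 200 assembled transcript components rose at each of 2 successive steps of development, from limb bud to forming digits and again from forming digits to fetal metapodials. They were chosen from the 64618 components of the deposited table by their measured scores. A component first needed to average 50 or more across the 14 libraries, which 13116 did. Its mean over 6 stage S15-17 libraries then had to be at least 2 times its mean over 6 stage S14 libraries, and its mean over the 2 fetal libraries at least 2 times the S15-17 mean, with 1 added to each mean. Of the 13116, 818 met the first condition, 1810 the second and 440 both. The 440 were 53.8% of those that rose at the first step and 24.3% of those that rose at the second. In 278 of the 440 the fetal libraries also lay within 2-fold of each other, and the 200 with the largest ratio of fetal to S14 mean were taken. The stage values below are therefore a description of the choice and have no test.

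The S14 libraries held the anterior, middle and posterior parts of the forelimb bud and the same 3 parts of the hindlimb bud. At S15-17 the libraries held 3 digit samples (digit I and digits II-V of the forelimb, digits I-V of the hindlimb) and 3 interdigital samples (beside forelimb digit I, as far as digit II; between forelimb digits II-V; and from the hindlimb). The fetal libraries held metacarpals II-V and metatarsals I-V. No treatment or genetic change is given in the labels, and each of these parts had 1 library, so the spread within a part was not measured and p-values below measure the spread between parts. Period and kind of dissected tissue changed together and cannot be told apart, nor can fewer cells of a type and less RNA per cell. The sources used here do not say whether a library pooled several embryos.

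As background, a limb bud is a core of mesenchyme under ectoderm in which condensations form that become the cartilage models of the digits. The tissue between the digits regresses in most mammals and persists between the wing digits of bats as part of the flight membrane. Metacarpals and metatarsals then grow through cartilage growth plates and turn to bone, so a fetal metapodial can hold cartilage, bone, marrow, vessel, muscle and connective tissue cells, while a bud holds mostly undifferentiated cells.

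The table does not pair its components with genes, and 0 of its identifiers matched a reference table of 22775 genes. Components are therefore given by identifier, with no gene name, role or sequence, and the mixture of cell types could not be checked against markers. One component may cover only a fragment of a transcript, and several may belong to 1 gene. No 2 of the 200 share an assembly number. The libraries held 4550754 to 7648427 reads, recovered from steps in the scores, and 1 read was worth a score of 1.29 to 2.23. The 3 digit libraries were shallower than the 3 interdigital ones in each matched region, with 4550754 against 6483035 reads at digit I, 5474111 against 5563074 reads at digits II-V and 5700318 against 6828498 reads in the foot.

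The 200 components went from a very small part of the messenger RNA to a sizeable one. Together they made up 0.121% to 0.156% of the score in the S14 libraries, 0.422% to 0.556% in the S15-17 libraries, and 4.16% in metacarpals and 4.69% in metatarsals. The median component had a mean score of 19.7 at S14, 83.5 at S15-17 and 661 in the fetal libraries. The first step had a median of 3.64-fold with a range of 2 to 37.1, and the second a median of 7.45-fold with a range of 2.05 to 852. The whole rise had a median of 26.1-fold, and 31 of the 200 rose 100-fold or more. Components that rose at the first step only (302, of the same minimum mean and fetal bound) had a median score of 71.2 at S14, 224 at S15-17 and 180 in the fetal libraries. Those that rose at the second step only (980) had medians of 105, 113 and 397. The 200 thus started lower than either set, as the ranking by ratio favours. Over all 20429 components tested below, the median of the log2 differences of the single components, fetal minus S14 mean, was -0.23. That median difference became -0.04 with upper-quartile scaling and -0.47 with median-centred libraries. The rise of each of the 200 was larger, which the rule required, so these values do not test the effect of scaling on them.

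**Figure D1:**
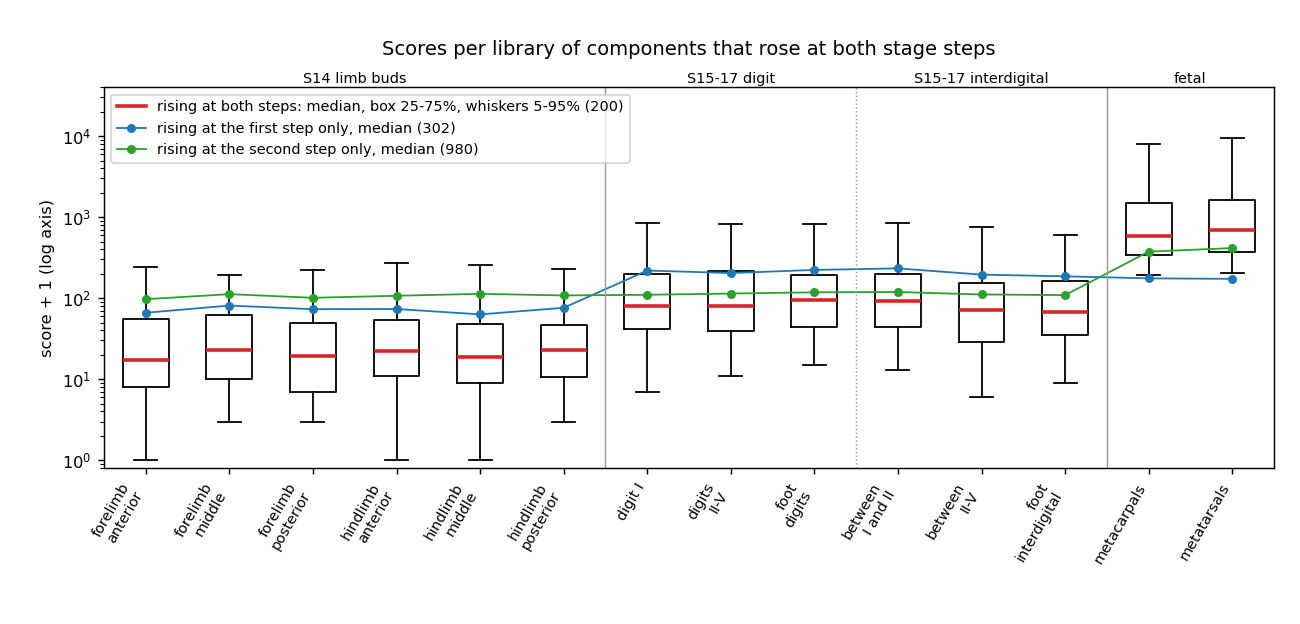
Scores of the 200 components in each of the 14 libraries (score + 1, log axis), with the median in red, boxes from the 25th to the 75th percentile and whiskers from the 5th to the 95th. Lines give medians of the 302 components that rose at the first step only and the 980 that rose at the second only, and the red medians correspond to scores between 16 and 22 at S14, between 65.5 and 93.5 at S15-17 and at 589.5 and 698 in the fetal libraries.

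The second step was the larger one in 154 of the 200 components and the first in 46. A first step of at least 4-fold was seen in 78, a second of at least 4-fold in 155 and both in 53. Across the 200 components the sizes of the steps on the log2 scale had a Pearson r of 0.04, which describes components that are not independent replicates and steps that share the S15-17 mean. In 199 of the 200, both fetal scores were above every S15-17 score, which the rule favours by holding the fetal libraries within 2-fold of each other. In 139 of the 200 every S15-17 library was above every S14 library, which a required first step of at least 2 favours. Neither count was made over all tested components or the other sets, so neither is read as particular to the 200. The rule set no 2-fold bound within S14 or S15-17, so the evenness of the steps cannot be compared from these counts. The median SD of log2 scores among the 6 S15-17 libraries was 0.49 for the 200 and 0.31 for all tested, and among the 6 S14 libraries 0.54 and 0.30. The 200 had a median of 66 pooled reads at S14, against 339 for all tested, and 43 of the 200 had 30 or fewer; the part of counting error in their spread was not tested.

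The steps were also described within parts of the same libraries. The rule had already used the means over these libraries, so the counts follow in part from the choice and are not independent of it. With forelimb libraries alone, including digit I and the tissue beside it, 183 of the 200 reached 2-fold at each step. With hindlimb libraries alone 170 did, and 153 did in each limb. Measured through digit libraries, 186 reached 2-fold at both steps, and through interdigital libraries 172. For the first step, 161 reached 2-fold in digit and in interdigital tissue, 28 in digit tissue only and 11 in interdigital tissue only. By library, the median first step was 3.46 in digit I, 3.41 in digits II-V and 3.60 in foot digits, against 3.87 in the tissue between digits I and II, 2.94 between digits II-V and 2.92 in foot interdigital tissue. The tissue between digits I and II, the deeper of the thumb-side libraries, held the highest S15-17 score in 70 of the 200, while that between digits II-V held the lowest in 60. Without 1 S15-17 library the first step of 26 components fell under 2-fold, 11 of them without the foot digits and 10 without the tissue between digits I and II.

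**Figure D2:**
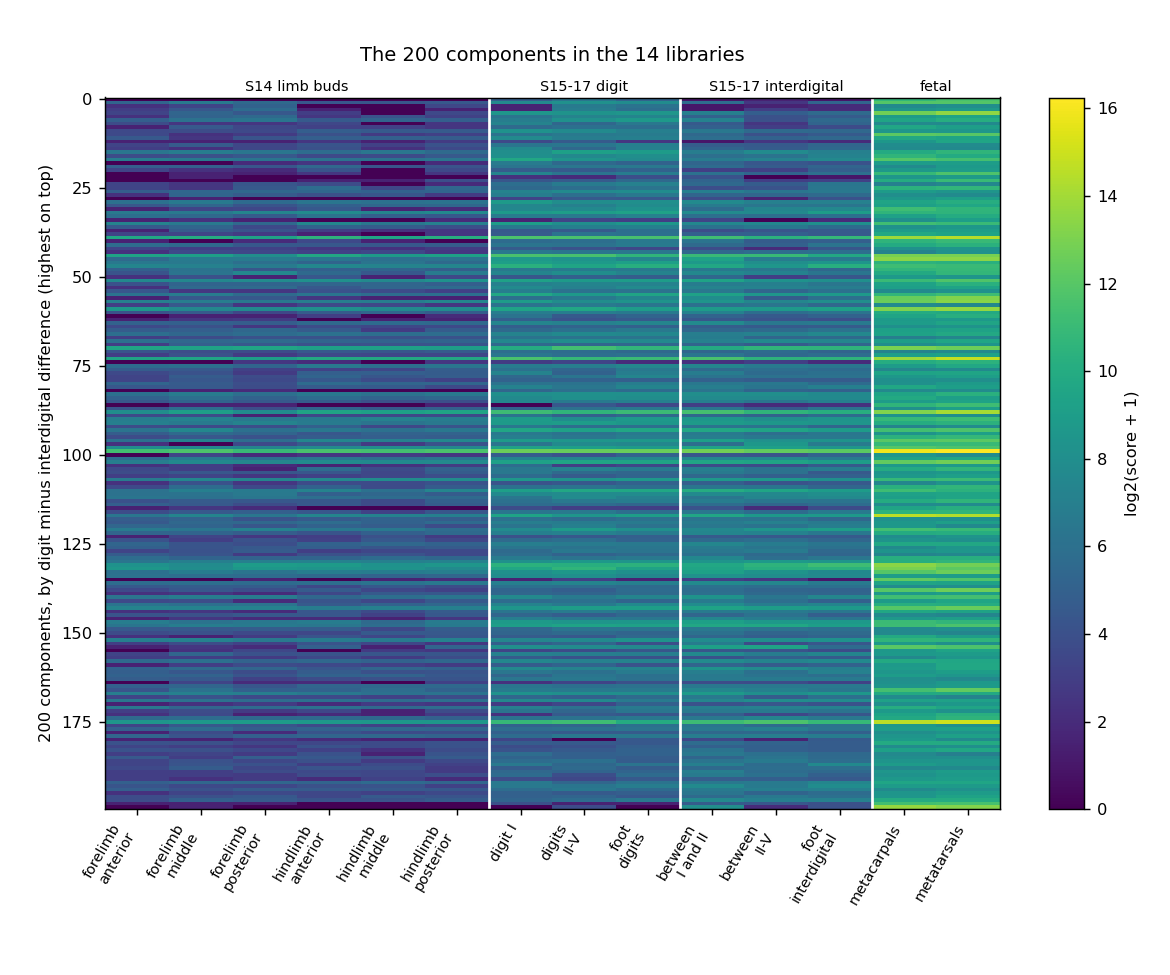
Log2(score + 1) of the 200 components (1 line each, ordered by their mean digit minus interdigital difference) in the 14 libraries, grouped by stage and tissue. Nearly every line brightens at both stage borders, 28 of the 200 have a score of 0 in at least 1 S14 library, and differences between digit and interdigital columns are seen mainly at the top and bottom edges.

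At the edges of the rule, the last component taken had a fetal to S14 ratio of 9.20 and the first left out 9.19. The lowest mean score taken was 50.4, and the highest left out 49.9. The smallest first step taken was 2 and the largest left out 1.996, the smallest second step 2.05 and the largest left out 1.87, and the widest ratio between fetal libraries 2, with the narrowest left out at 2.001.

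The largest rise was that of comp1255_c0, with a ratio of 8421 by the rule, which adds 1 to each mean. Its scores at S14 were 0, 2 and 0 in the anterior, middle and posterior forelimb bud and 0 in all hindlimb parts. At S15-17 they were 0 in digit I, 12 in digits II-V and 0 in foot digits, against 261 between digits I and II, 3 between digits II-V and 15 in foot interdigital tissue, and in the fetal libraries 13004 in metacarpals and 9449 in metatarsals. It was thus nearly missing before the fetal stage except in 1 library, which held 89.7% of its S15-17 score. Its first step was 37.1 with that library and 5.25 without it. Its pooled reads were 15965 in the fetal and 1 in the S14 libraries, so their depth-adjusted ratio is known only within an exact 95% interval from 7155 to 1.57e+06. The second largest rise was that of comp3547_c0. It scored 0 in all 6 S14 libraries, and 1723 in metacarpals and 3094 in metatarsals. Set against a floor of 3 reads over the S14 libraries, its pooled S15-17 reads were at least 28-fold higher and its pooled fetal reads at least 2715-fold higher, where the floor covers counting error only.

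Digit and interdigital tissue of S15-17 were compared in 3 matched regions: digit I with the tissue beside it, digits II-V with the tissue between them, and foot digits with foot interdigital tissue. This contrast was not used to choose the components. None of the 200 passed the test (limma with the region as a block, Benjamini-Hochberg adjusted p under 0.05 over all 20429 components that averaged 10 or more across the libraries), against 4 of 20429 or 0.0196% of all tested. The smallest adjusted p in limma among the 200 was 0.066. At an unadjusted limma p under 0.05 there were 54 of the 200 (27%), 40 higher and 14 lower in digit tissue, against 8.55% of all tested. The share was 24.8% among the 302 that rose at the first step only and 11.02% among the 980 that rose at the second only.

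More of the 200 leaned toward digit than toward interdigital tissue, though the median difference was small. The digit score was higher in all 3 regions in 55 (27.5%, against 16.2% of all tested) and lower in all 3 in 27 (13.5%, against 12.2%). Every digit library was above every interdigital library in 27 (13.5%, against 6.86%), and every one was below in 11 (5.5%, against 4.39%). The mean log2 difference was 1 or more in 27 (13.5%, against 2.47%) and -1 or less in 4 (2%, against 2.17%). The median log2 difference of the 200 was 0.10, against 0.02 for all tested, and without the foot pair it was -0.01. By region the medians were -0.15 on the thumb side, 0.22 in the wing and 0.32 in the foot, against 0, 0.04 and 0.03 for all tested. The thumb side thus ran opposite to the other regions on median, with 85 of the 200 higher in digit I and 115 (57.5%) higher in the tissue beside it. This was not particular to the 200. Thumb, wing and foot medians were -0.07, -0.01 and 0.19 for the 302 that rose at the first step only. They were -0.08, 0.03 and 0.20 for the 980 that rose at the second only. Digit I was the lower one in 56.6% and 58.9% of these sets. Across the 200 components, the difference in the wing had a Pearson r of 0.60 with that in the foot, 0.28 with that on the thumb side, and the foot and thumb side had 0.39, against 0.25, 0.15 and 0.08 over all tested. In the same order, r was 0.58, 0.35 and 0.36 over the 302 that rose at the first step only. It was 0.23, 0.22 and 0.14 over the 980 that rose at the second only. The 27 with a mean difference of 1 or more had a median score of 96.3 in digit and 33 in interdigital tissue, and 23 of them were higher in digit in all 3 regions.

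**Figure D3:**
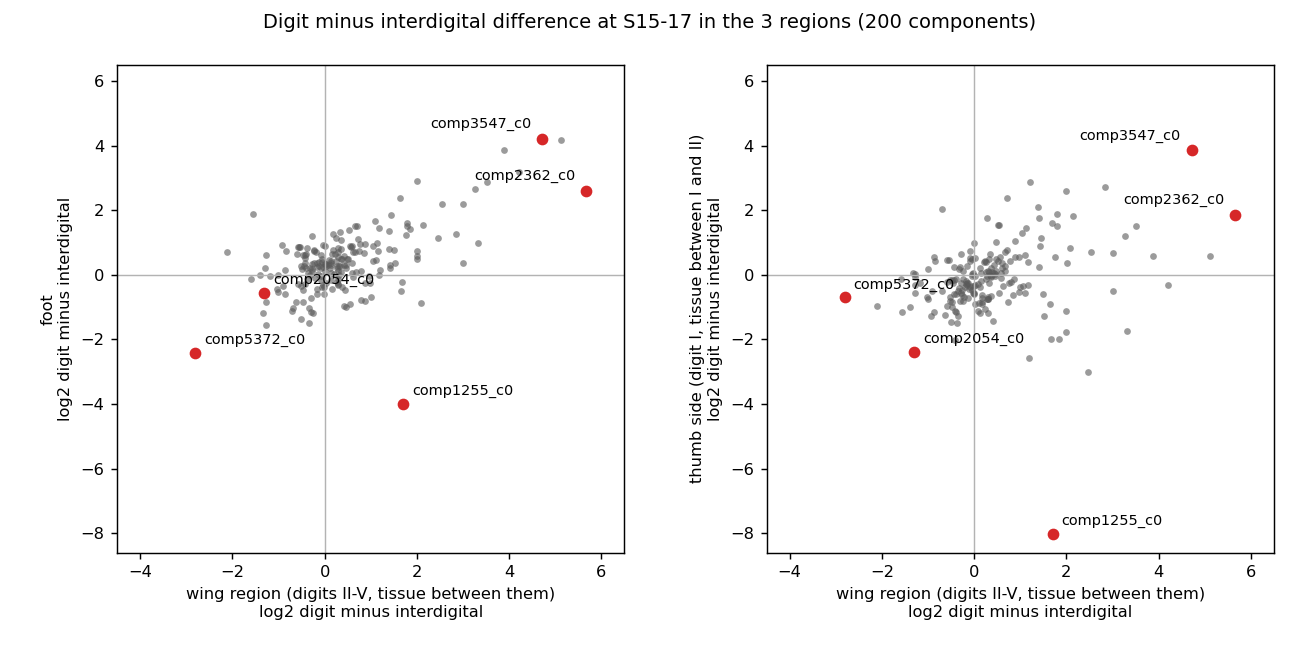
Log2 digit minus interdigital difference of each of the 200 components in the foot (left) and on the thumb side (right) against the wing region, with 5 components marked in red. Most points lie within 1 of 0 on both axes, comp3547_c0 and comp2362_c0 stand at the upper right, and comp1255_c0 is low for the thumb side and for the foot but not for the wing.

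The number of calls in this contrast depended on the setting used with limma. Robust variance shrinkage called 18 of the 200 higher and 1 lower in digit tissue, against 0.837% and 0.206% of all tested. Voom on the recovered reads called 18 higher and 3 lower, against 0.798% and 0.308%. A filter on the mean over the 6 libraries of the fit kept 193 of the 200 and called 25 higher and 1 lower, against 1.09% and 0.249% of the 20105 components it kept. These 3 settings, run on the same libraries, shared 16 of the 200, of which 15 were higher in digit tissue, by 0.66 to 4.26 on the log2 scale. In 12 of the 15 every digit library was above every interdigital one. Shared calls were not counted over all tested components, so these numbers have no background share beside them. The shared component lower in digit tissue was comp2054_c0.

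The largest difference toward digit tissue, among the 200 and among all 20429 tested, was that of comp3547_c0. It scored 28 in digit I, 78 in digits II-V and 36 in foot digits, against 1 between digits I and II, 2 between digits II-V and 1 in foot interdigital tissue. All digit libraries were far above all interdigital ones. Its mean was 47.3 ± 26.9 in digit and 1.33 ± 0.58 in interdigital tissue (SD, n = 3 each), from 79 and 3 pooled reads, a depth-adjusted ratio of 31.6 (exact 95% interval 10.4 to 157, counting error only). The log2 difference was 4.26 (SE 0.39, limma adjusted p = 0.066; 0.00030 to 0.66 over the alternatives).

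The next, comp2362_c0, scored 203 in digit I, 303 in digits II-V and 242 in foot digits, against 55, 5 and 39 in the matching interdigital libraries. The groups did not overlap, and the tissue between digits II-V had far the lowest score. Its log2 difference was 3.38 (SE 0.67, limma adjusted p = 0.23). Unlike comp3547_c0 it was present in the bud, at 38, 104 and 45 in the anterior, middle and posterior forelimb and 20, 19 and 21 in the hindlimb parts, and it reached 3866 in metacarpals and 3858 in metatarsals.

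In the opposite direction, the lowest mean log2 difference among all tested was the -3.44 of comp1255_c0, whose wing difference had the opposite sign (12 in digits II-V, against 3 between them). Of the components lower in digit tissue in all 3 regions, comp5372_c0 had the largest difference. It scored 15 in digit I, 2 in digits II-V and 2 in foot digits, against 25, 20 and 15 in the matching interdigital libraries. Digit I equalled the lowest interdigital score, so the groups touched. Its log2 difference was -1.97 (SE 0.51, limma adjusted p = 0.37), and its pooled reads were 9 in digit and 40 in interdigital tissue. It had scores of 0 to 2 in the bud and of 2592 in metacarpals and 2936 in metatarsals.

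The other, comp2054_c0, scored 38 in digit I, 52 in digits II-V and 93 in foot digits, against 202, 130 and 137 in the matching interdigital libraries. All digit libraries lay below all interdigital ones, at means of 61 ± 28.6 and 156 ± 39.7 (SD, n = 3 each). Its log2 difference was -1.41 (SE 0.35, limma adjusted p = 0.34). It scored 13 to 31 in the bud, 1021 in metacarpals and 1026 in metatarsals.

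**Figure D4:**
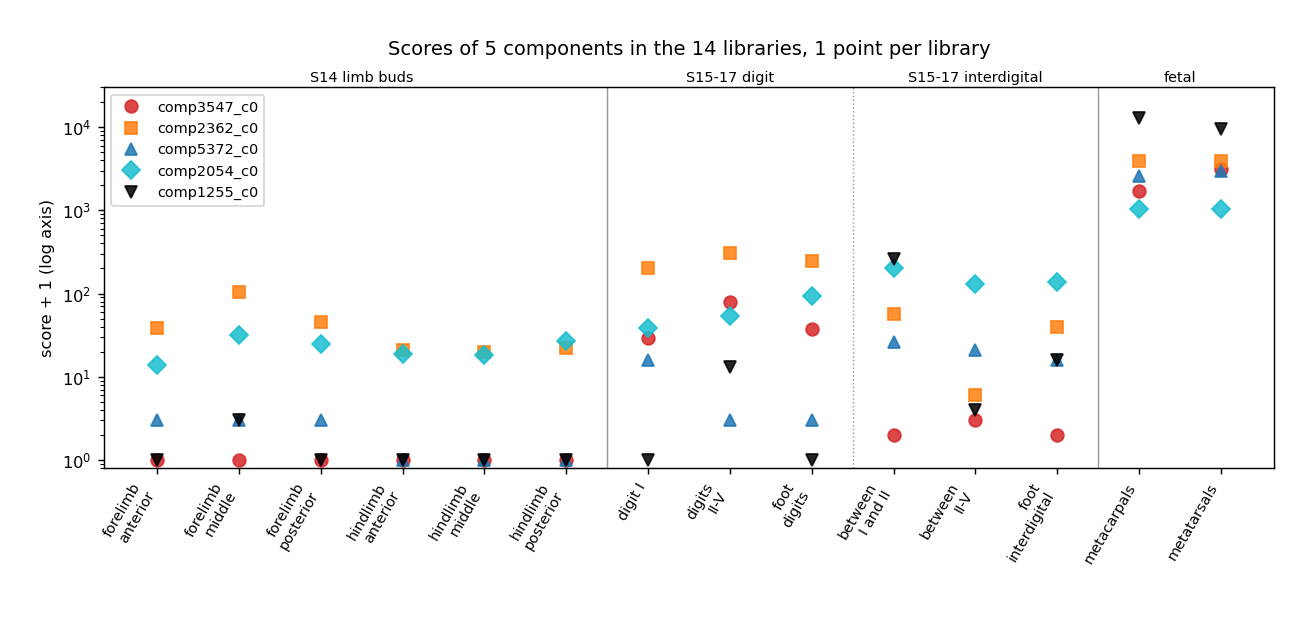
Scores (score + 1, log axis) of comp3547_c0, comp2362_c0, comp5372_c0, comp2054_c0 and comp1255_c0 in the 14 libraries, 1 point per library. The first 2 are higher in digit than in interdigital libraries, the next 2 lower, comp1255_c0 is high before the fetal stage only between digits I and II, and the lowest fetal score of the 5 is 1021.

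Digit I differed from the other digits in a few components. In 4 of the 200 (2%, against 1.05% of all tested), digits II-V and foot digits were both at least 4-fold above digit I, and in 2 (1%, against 0.108%) both were at least 4-fold below it. This comparison was chosen after the scores had been seen. The clearest were comp12631_c0 and comp13440_c0, which ran in parallel. Component comp12631_c0 scored 117 in digits II-V and 58 in foot digits, against 2 in digit I, from 67, 34 and 1 reads. Component comp13440_c0 scored 103 in digits II-V and 72 in foot digits, against 2 in digit I, from 59, 42 and 1 reads. Both had scores of 1 to 7 in all interdigital libraries, so at S15-17 their high scores were those of digits II-V and foot digits. The others above digit I were comp2013_c0, at 21 and 10, against 0 in digit I, and comp6994_c0, at 24 and 19, against 4. Those below it were comp5372_c0, at 2 and 2, against 15, and comp19220_c0, at 7 and 10, against 53.

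For digit and for interdigital tissue of S15-17, the wing region was compared with the average of the other regions, thumb side and foot. None of the 200 passed (limma adjusted p under 0.05), against 3 of 20429 or 0.0147%. At an unadjusted limma p under 0.05 there were 35 (17.5%, against 8.36% of all tested), 11 higher and 24 lower in the wing. That share was 25.8% among the 302 that rose at the first step only and 10.3% among the 980 that rose at the second only. The median log2 difference of the 200 was -0.15, against -0.01. The wing was above thumb side and foot in all 4 pairs in 20 of the 200 (10%, against 10.4% of all tested). It was below them in all 4 pairs in 43 (21.5%, against 13.4% of all tested). The wing was below in 21.9% of the 302 and in 14.5% of the 980, so the lean was not particular to the 200. Most of the lean of the 200 lay between the interdigital libraries. The tissue between digits II-V was lower than that between digits I and II in 138 of the 200, at a median of -0.40. Without the library from between digits I and II, the median of the contrast was -0.03. Robust shrinkage called 9 of the 200 (3 higher, 6 lower), voom 6 (4 and 2) and the filter on the libraries in the fit 9 (3 and 6), against 0.857%, 0.739% and 1.03% of all tested.

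Components higher in the wing included comp7381_c0, with a score of 219 in digits II-V, against 79 in digit I and 182 in foot digits, and a score of 393 between digits II-V, against 58 beside digit I and 108 in foot interdigital tissue. Its wing libraries were the highest of their tissue, with a log2 difference of 1.58 (SE 0.33, limma adjusted p = 0.28). The largest in this direction was comp12631_c0 at 2.32 (SE 0.74, limma adjusted p = 0.48), with interdigital scores of only 7 in the wing, against 1 on the thumb side and 3 in the foot. Lower in the wing was comp14958_c0, with a score of 0 in digits II-V, against 9 in digit I and 21 in foot digits, a score of 2 between digits II-V, against 10 beside digit I and 23 in foot interdigital tissue, and a log2 difference of -3.16 (SE 0.49, limma adjusted p = 0.17). Component comp11828_c0 scored 42 in digits II-V, against 156 in digit I and 91 in foot digits, and 5 between digits II-V, against 23 beside digit I and 37 in foot interdigital tissue, with -1.91 (SE 0.41, limma adjusted p = 0.30).

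Forelimb and hindlimb were compared over 5 matched pairs: the anterior, middle and posterior bud at S14 and the digits and interdigital tissue at S15-17, where forelimb parts II-V stood against hindlimb parts I-V. None of the 200 passed (limma adjusted p under 0.05), against 12 of 20429 or 0.0587% of all tested. With robust shrinkage and voom none did either, against 25 (0.122%) and 30 (0.147%) of 20429. Only 184 of the 200 averaged 10 or more over the libraries of this fit, and the rest entered the test through other libraries. With the filter set on the libraries of the fit, limma called 0 of the 184, against 30 of 19469 (0.154%). At an unadjusted limma p under 0.05 there were 26 (13%, against 7.9%), 11 higher and 15 lower in forelimb. That share was 23.1% among the 78 that met the rule outside the top 200. It was 19.9% among the 302 that rose at the first step only and 10.5% among the 980 that rose at the second only. The forelimb was higher in all 5 pairs in 8 of the 200 (4%, against 3.27%) and lower in all 5 in 14 (7%, against 4.38%). The median log2 difference was -0.03 for the 200 and -0.03 for all tested.

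That median hid unlike pairs. In the bud, the median forelimb minus hindlimb difference of the 200 was -0.27 for the anterior, 0.34 for the middle and -0.21 for the posterior part, against 0, -0.03 and -0.03 for all tested. Within a bud, the middle part of the forelimb stood above the mean of its outer parts in 143 of the 200, with a median of 0.41, while in the hindlimb it did so in 70, with a median of -0.21. Over all tested the medians were 0.01 and 0.02. For the 302 components that rose at the first step only the medians were 0.33 in forelimb and -0.19 in hindlimb, and for the 980 that rose at the second only they were 0.25 and 0.05; differences between these sets were not tested. Each of these values rests on 1 library per part, and the hindlimb middle library, with 5237379 reads, had 21 of the 200 at 0. At S15-17 the medians were -0.10 for digits and -0.07 for interdigital tissue.

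**Figure D5:**
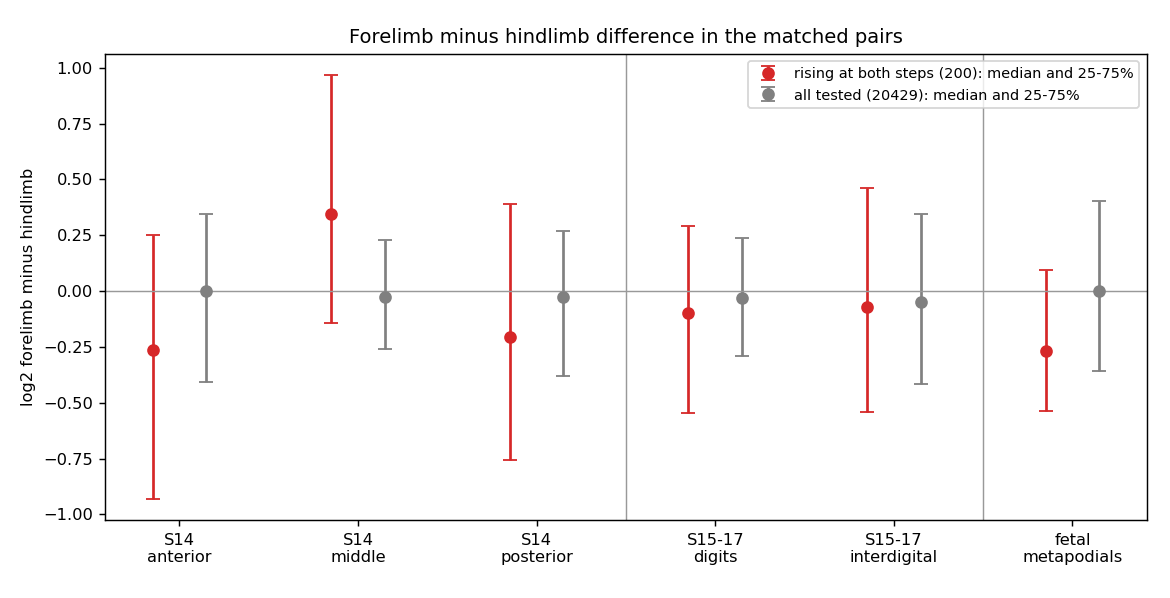
Median (points) and 25th to 75th percentile (bars) of the log2 forelimb minus hindlimb difference in each matched pair, for the 200 components in red and all 20429 tested in grey. The middle bud pair, at 0.34, is the only one of the 6 in which the median of the 200 is above 0.

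Among components higher in forelimb, comp12631_c0 scored 7, 20 and 53 in the anterior, middle and posterior forelimb bud, against 2, 0 and 2 in the hindlimb bud. At S15-17 it scored 117 and 7 in forelimb digits and interdigital tissue, against 58 and 3 in hindlimb. All 5 forelimb scores were above their partners, with a log2 difference of 2.40 (SE 0.60, limma adjusted p = 0.41). Component comp10605_c0 scored 9, 9, 6, 71 and 31 in forelimb, against 2, 0, 5, 62 and 22 in hindlimb in the same order, with 1.19 (SE 0.49, limma adjusted p = 0.62). Lower in forelimb was comp14248_c0, at 0, 0, 0, 24 and 7 in forelimb, against 2, 2, 14, 46 and 8 in hindlimb, with -1.63 (SE 0.51, limma adjusted p = 0.51). Component comp10027_c0 scored 9, 5, 22, 57 and 17 in forelimb, against 52, 10, 42, 75 and 87 in hindlimb, with -1.37 (SE 0.36, limma adjusted p = 0.41). In the fetal pair, which the rule bounds, comp14248_c0 and comp10027_c0 scored 1038 and 1414 in metacarpals, against 1986 and 1687 in metatarsals. Component comp12631_c0 scored 335 in metacarpals, against 415 in metatarsals, and comp10605_c0 scored 898, against 672. On the thumb side, outside this comparison, digit I and the tissue beside it scored 2 and 1 for comp12631_c0 and 24 and 30 for comp10605_c0. They scored 19 and 36 for comp14248_c0 and 45 and 14 for comp10027_c0.

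Whether the limb difference changed between the stages was tested as an interaction. None of the 200 passed (limma adjusted p under 0.05), against 1 of 20429 or 0.0049%. With robust shrinkage and voom none did either, against 16 (0.0783%) and 3 (0.0147%) of 20429. The filter on the libraries in the fit kept 184 of the 200 and called 0 of them, against 11 of 19469 (0.0565%). At an unadjusted limma p under 0.05 there were 30 (15%, against 9.54%), 13 higher and 17 lower. Component comp7381_c0 scored 4, 0 and 11 in the forelimb bud parts, against 24, 6 and 16 in the hindlimb bud, and at S15-17 it scored 219 and 393 in forelimb digits and interdigital tissue, against 182 and 108 in hindlimb. Forelimb was thus lower in each bud pair and higher in each later pair, with a change of 2.94 (SE 0.82, limma adjusted p = 0.48). Component comp6462_c0 scored 4, 5 and 3 in the forelimb bud, against 20, 12 and 24 in the hindlimb bud, and then 106 and 104, against 69 and 83. Its change was 2.41 (SE 0.61, limma adjusted p = 0.46), and its thumb-side scores of 77 and 97 were above those of the foot. In the opposite direction, comp11307_c0 scored 2, 5 and 3 in the forelimb bud, against 0 in each hindlimb part, and then 7 and 3, against 7 and 12. Its change was -2.91 (SE 0.76, limma adjusted p = 0.46), but its thumb-side scores of 13 and 17 were above those of the foot. Component comp14958_c0 had bud scores of 2 to 5 in every part and then 0 and 2 in forelimb, against 21 and 23 in hindlimb. Its change was -3.92 (SE 0.77, limma adjusted p = 0.41), and its thumb-side scores of 9 and 10 were below those of the foot. Both comp11307_c0 and comp14958_c0 fell under the filter on the libraries in the fit and entered the test through other libraries. They had only 6 and 9 pooled reads at S14.

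Within the S14 bud, the anterior was compared with the posterior part over both limbs. None of the 200 passed (limma adjusted p under 0.05), against 0 of 20429 (0%) among all tested. With robust shrinkage none did either, against 5 of 20429 (0.0245%), nor with voom, against 0 of 20429. At an unadjusted limma p under 0.05 there were 12 (6%, against 3.88%), 3 higher and 9 lower in the anterior part. The anterior part was higher in both limbs in 45 (22.5%, against 26.7%) and lower in both in 44 (22%, against 25.7%). Only 148 of the 200 averaged 10 or more over the S14 libraries, and the rest entered the test through their later scores. With the filter set on the S14 libraries, limma called 0 of the 148, against 25 of 18957 (0.132%). Components comp13440_c0 and comp8699_c0, named below, averaged 9.5 and 4.17 at S14 and fell under that filter. Component comp11260_c0 scored 58 and 70 in the anterior forelimb and hindlimb, against 24 and 21 in the posterior parts, with a log2 difference of 1.46 (SE 0.36, limma adjusted p = 0.95), and comp5885_c0 scored 20 and 16, against 5 and 8. Lower in the anterior part were comp13440_c0, at 4 and 0, against 34 and 10, and comp8699_c0, at 0 and 0, against 10 and 5. The pair comp12631_c0 and comp13440_c0 thus shared a high posterior forelimb bud score, at 53 and 34, as well as their low scores in digit I.

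Between the fetal libraries, which the rule held within 2-fold, metacarpals were above metatarsals in 61 of the 200 and below in 138, at a median log2 difference of -0.27, against 0 for all tested. The 200 had a summed score of 410135 in metacarpals and 493110 in metatarsals. This contrast of 1 library with 1 has no test.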

How the data were processed

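The authors deposited 1 table of normalized scores per assembled component in 14 libraries of total RNA, made with TruSeq kits per the labels' protocols. CASAVA 1.8, RSEM and edgeR are named, with no role, per the submitters' processing notes; the sources used here do not give the assembly. The deposited scores are whole numbers, read as rounded normalized counts since low scores fell on rounded multiples of 1 step per library, which gave the reads (99.98% to 100% of nonzero scores matched after rounding). All 14 columns were used.

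The test was limma's (version 3.58.1, R 4.3.3, mean-variance trend, two-sided) on log2(score + 1), over the 20429 components that averaged 10 or more, all 200 included. Benjamini-Hochberg adjustment ran over the 20429. Fold changes on this scale understate the change of low components. The rest used Python 3.11.15 (pandas 2.3.3, numpy 2.4.6, scipy 1.17.1; plots with matplotlib 3.10.9). Named are the 2 largest rises and, per contrast and direction, the 2 largest differences with the same sign in every pair; in the interaction, the 2 largest changes where later and earlier pairs did not overlap. Others were named after their values were seen. The members, tests and lists were chosen with earlier results of these data known. Alternatives were pseudocounts of 0.25 and 5, other filters, upper-quartile and median scaling, no block, robust shrinkage, voom on recovered reads, and leaving out each pair or library. Intervals are exact at 95% and cover counting error only.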

Additional observations from a re-analysis of the deposited data

Results flagged for a closer look

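In 40 groups of 6 libraries of 1 stage checked among the named components, 6 had 1 library far from the other 5 (gap to the nearest over the range above 0.625). This limit flags about 1 in 20 groups of repeats by chance. These libraries are different parts and not repeats of 1 part, and most of the components were named for large differences between parts. The 6 of 40 can therefore not be set against that rate. At S15-17, comp1255_c0 scored 261 between digits I and II, against 15 or less in the others. At S14, comp2362_c0 scored 104 in the middle forelimb bud, against 45 or less in the others, and comp13440_c0 scored 34 in the posterior forelimb bud, against 10 or less. Component comp14248_c0 scored 14 in the posterior hindlimb bud, against 2 or less. The scores of 5 for comp14958_c0 in the posterior forelimb bud and 2 for comp1255_c0 in the middle forelimb bud are 3 reads or fewer each.

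Among the named components, to which this check was limited, the limb difference of 2 pointed opposite ways at S14 and S15-17 in every pair. The change in forelimb minus hindlimb difference was 2.94 for comp7381_c0 and 2.41 for comp6462_c0, and neither passed the interaction test (limma adjusted p = 0.48 and 0.46).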

How the results depend on the processing

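Of the 200, 0 passed between digit and interdigital tissue, 0 without the region block, and 26 with the filter on the libraries in the fit, 19 with robust shrinkage and 21 with voom. Median-centred libraries gave 1 (0.5%, against 0.0245% of all tested) and a pseudocount of 5 gave 3 (1.5%, against 0.152%). Leaving out 1 pair gave 0 to 6, with 6 (3%, against 0.171%) without the thumb pair. For the wing contrast, 0 passed, 9 with the filter, 9 with robust shrinkage and 6 with voom, and 0 without any 1 library. The cause of these gains was not tested. The limb, interaction and anterior contrasts gave 0 under every alternative run. Of 276 values of named components under alternatives, 257 kept direction and side of the threshold and 19 became calls, all in the digit and wing contrasts; comp3547_c0 became a call in 6 of 12 settings. The labels give no replicate numbers, so the block comes from anatomy.

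The median digit difference ranged from -0.01 to 0.22 without 1 pair, and the median limb difference from -0.17 to 0.04. Of the 200, 130 were still chosen with a minimum mean of 100, 198 and 179 with pseudocounts of 0.25 and 5, 180 with upper-quartile scaling and 164 with median-centred libraries. Leaving out 1 S14 or S15-17 library, chosen after seeing the data, kept a first step of 2 in 188 to 196. Depth limits low members, since 1 read at S14 is a score of 1.60 to 2.23.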
